A study of Mus musculus with 7 samples.

Results

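The cohesin and meiotic chromosome axis genes were described in oocytes of WT mice and of mice whose oocytes lack *Mfn1*. Their 10 members were taken by gene symbol: the cohesin subunits *Smc1a*, *Smc1b*, *Smc3*, *Stag3*, *Rad21* and *Rec8*, the shugoshins *Sgo1* and *Sgo2a*, and the axis genes *Sycp3* and *Hormad1*. Of these, 9 had a row among the 22877 rows of the deposited table. *Rec8*, the meiotic kleisin on chr14:55618037-55625395, had no row and is not analysed here. On GRCm38, as annotated by GENCODE M21, *Smc1a* lies on chrX:152016428-152062694 and *Smc1b* on chr15:85064689-85131964. *Smc3* lies on chr19:53600398-53645833, *Stag3* on chr5:138280240-138312393 and *Rad21* on chr15:51962240-51991747. *Sgo1* lies on chr17:53674786-53689333, *Sgo2a* on chr1:57995971-58025899 and *Hormad1* on chr3:95559677-95587671. Whether reads in introns were counted is not given in the sources used here.

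*Mfn1* encodes mitofusin 1, a protein of the outer mitochondrial membrane that fuses mitochondria. The mice were C57BL/6J and 8 weeks old. The Mfn1-/- oocytes came from floxed *Mfn1* mice carrying Zp3-Cre, a recombinase driven by the *Zp3* promoter that acts once oocytes begin to grow, and the WT oocytes came from littermates. There were 4 WT and 3 Mfn1-/- libraries, each of poly(A) RNA from 5 pooled oocytes taken out of secondary follicles, while the study's design text gives n = 3 for each genotype. The labels name no agent for either group. Whether the libraries of a genotype came from separate animals is not stated in the sources used here.

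Cohesin is a ring of 2 SMC proteins closed by a kleisin and held on DNA by a STAG protein, and it ties sister chromatids together. In meiosis, SMC1B, REC8 and STAG3 take the places of SMC1A, RAD21 and STAG1 or STAG2 in much of the complex, and the cohesin-rich axis carries SYCP3 and HORMAD1. Oocytes load their cohesin before birth and hold it through the long prophase arrest, and shugoshins protect it at centromeres during the first division.

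For each gene the table held 1 mean of normalized counts per genotype, called the authors' mean here. No test was run on these means, they carry no error from the spread of libraries, and each ratio has no replicate check. The values behaved as RPKM, read numbers scaled to sequencing depth and gene length, taken on the genomic span of the gene and with 0.01 added, so genes can be compared with each other only after rescaling to exon length. On that reading, the values were scaled to an average of about 4900000 read pairs per library in Mfn1-/- and 4870000 in WT. The study reports a larger number of sequenced reads, so these are not the full depth of the libraries. Each member's approximate number of read pairs, over all libraries of its genotype, gave the 95% intervals below, which are exact, rest on that reading, and cover counting error only. The log2 ratio was that of Mfn1-/- over WT after adding 0.1 to both means. In the 6226 genes whose mean reached 1, called the expressed genes here, the median log2 ratio was 0.16. A member near that value lay near the middle of those genes. That cut was set before rescaling to exon length, so it favours genes of short span. It leaves out *Smc1b*, with about 308 and 325 read pairs, and *Rad21*, with about 338 and 515.

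The promoters of 5 members are shown first, since they carry letters that meiotic gene promoters are known for. E2F proteins bind GCGGGAA, MAX-containing dimers bind the E-box CACGTG, and a Polycomb complex holding both E2F6 and MGA-MAX silences germline genes in somatic cells. The windows are the 250 bases before a RefSeq start on GRCm38.p6, written 5′ to 3′ along the gene, with both motifs in capitals on either strand. *Sycp3* is at chr10:88459337-88459586 on the plus strand, *Hormad1* at chr3:95559427-95559676 on the plus strand, *Stag3* at chr5:138280259-138280508 on the plus strand, *Sgo1* at chr17:53689316-53689565 on the minus strand and *Smc1b* at chr15:85131958-85132207 on the minus strand. The *Stag3* window lies just inside the gene as GENCODE draws it.
Sycp3: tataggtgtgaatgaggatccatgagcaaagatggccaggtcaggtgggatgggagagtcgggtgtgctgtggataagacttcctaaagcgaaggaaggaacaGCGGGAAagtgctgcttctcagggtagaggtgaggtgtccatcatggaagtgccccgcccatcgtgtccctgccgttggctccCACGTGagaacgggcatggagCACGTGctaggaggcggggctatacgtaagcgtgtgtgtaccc
Hormad1: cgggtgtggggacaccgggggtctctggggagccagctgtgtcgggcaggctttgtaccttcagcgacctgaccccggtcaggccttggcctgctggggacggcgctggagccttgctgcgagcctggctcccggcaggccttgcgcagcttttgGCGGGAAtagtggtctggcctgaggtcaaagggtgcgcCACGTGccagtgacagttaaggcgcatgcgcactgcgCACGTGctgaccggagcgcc
Stag3: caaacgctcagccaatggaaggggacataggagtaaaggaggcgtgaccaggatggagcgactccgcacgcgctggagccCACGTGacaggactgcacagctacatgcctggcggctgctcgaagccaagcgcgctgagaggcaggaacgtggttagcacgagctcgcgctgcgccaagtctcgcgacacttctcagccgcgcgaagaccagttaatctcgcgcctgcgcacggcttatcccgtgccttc
Sgo1: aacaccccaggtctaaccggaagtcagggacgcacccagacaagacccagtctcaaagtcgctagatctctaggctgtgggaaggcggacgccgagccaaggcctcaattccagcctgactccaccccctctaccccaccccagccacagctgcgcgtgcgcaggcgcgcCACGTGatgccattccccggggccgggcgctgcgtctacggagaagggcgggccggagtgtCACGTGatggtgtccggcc
Smc1b: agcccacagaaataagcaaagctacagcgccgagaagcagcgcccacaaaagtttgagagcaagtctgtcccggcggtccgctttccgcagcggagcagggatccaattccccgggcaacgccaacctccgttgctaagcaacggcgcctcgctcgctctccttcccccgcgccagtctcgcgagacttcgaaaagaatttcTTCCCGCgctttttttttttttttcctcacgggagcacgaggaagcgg

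A promoter window was given for 9 of the 10 members, and more than a single one for *Hormad1* and *Sgo2a*. A member counted where any of its windows held a motif, while the genome shares are of single windows. GCGGGAA stood in 3 of the 9, those of *Sycp3*, *Hormad1* and *Smc1b*, and in 3.82% of 32851 promoter windows of the genome outside chromosome 18. Among the 14127 windows with at least 8 CpG dinucleotides, the lowest number in any member, its share was 7.77%. CACGTG stood in 4 of the 9, those of *Sycp3*, *Hormad1*, *Sgo1* and *Stag3*, against 6.02% of all windows and 9.18% of the CpG-richer ones. Both motifs occurred together in the windows of *Sycp3* and *Hormad1*, against 0.338% of all windows and 0.736% of the CpG-richer ones. The looser TCCCGC, which lies inside the reverse complement of the E2F motif, stood in 6 of 9 member windows against 34.6% of the CpG-richer windows. CANNTG, which includes CACGTG, stood in 8 of 9 against 55.1%, and CCAAT in 5 of 9 against 33.3%. For *Sgo2a*, CCAAT stood only in the window at chr1:57985090-57985339, which also had the lowest CpG number. The bases after that window were found in no *Sgo2a* transcript. The motifs were chosen with the members' ratios known, the shares are a description, and a match is not a site shown to be bound.

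Among the cohesin subunits, *Smc3* had the most transcript. It encodes the SMC subunit that every cohesin ring shares. Its authors' mean was 5.01 in Mfn1-/- and 4.09 in WT, a log2 ratio of 0.29. With the added 0.01 removed the ratio was 1.23, with a counting interval of 1.17 to 1.28 on about 3338 and 3609 read pairs. Of the 2352 genes whose mean lay within 2-fold of that of *Smc3*, 63.9% had a lower log2 ratio, so its difference lay among the common ones of that set. Such sets were matched on the mean before rescaling to exon length, so their genes can differ in read pairs. RNA of 5 pooled oocytes was measured, so a difference in cells, in RNA per cell or in one gene's share of that RNA cannot be told apart.

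The SMC partners of *Smc3* differed little between genotypes. *Smc1a*, the partner used in all cells, averaged 1.18 in Mfn1-/- and 1.1 in WT, a log2 ratio of 0.09. *Smc1b*, the meiotic partner, had means of 0.322 and 0.258, a log2 ratio of 0.24. The ratio with 0.01 removed was 1.07 for *Smc1a*, with an interval of 0.976 to 1.18, and 1.26 for *Smc1b*, with an interval of 1.07 to 1.47. The Mfn1-/- mean was thus the higher for both, and the counting interval held 1 for *Smc1a* and not for *Smc1b*. When the median of the expressed genes was subtracted, the log2 ratio of *Smc1a* became -0.07 and that of *Smc1b* 0.08.

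*Rad21*, the kleisin of mitotic cohesin, was one of 2 members with the lower mean in Mfn1-/-. The authors' mean was 0.789 in Mfn1-/- against 0.906 in WT, a log2 ratio of -0.18, or -0.34 relative to the expressed genes. The ratio with 0.01 removed was 0.869, with an interval of 0.756 to 0.999, whose upper bound lay next to 1. Of 3871 genes whose mean lay within 2-fold of its own, 26.9% had a lower log2 ratio.

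*Stag3*, the meiotic STAG subunit, was close to the floor of the table, where the lowest value is 0.01. The mean was 0.115 in Mfn1-/- against 0.0641 in WT, from about 50 and 34 read pairs. The log2 ratio was 0.39 with the pseudocount and 0.96 with the 0.01 removed, so its size was set largely by how low values were treated. The interval of the ratio with 0.01 removed ran from 1.24 to 3.11. Stretches of at least 75 bases at 95% identity or more were shared between *Stag3* transcripts and those of 37 other genes, up to 109 bases long, and reads from these stretches cannot be assigned with certainty.

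**Figure D1:**
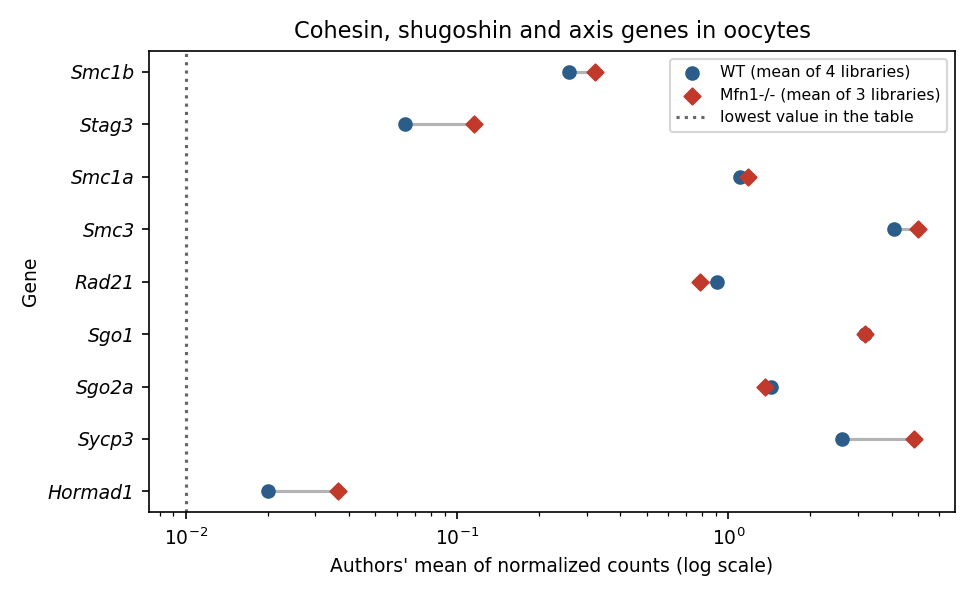
The authors' mean of normalized counts (log scale) in WT (circles, mean of 4 libraries) and Mfn1-/- (diamonds, mean of 3 libraries) for the 9 members with a row, with the lowest value of the table, 0.01, dotted. *Sycp3* has the widest gap among members above a mean of 1 (4.84 against 2.62), the points of *Sgo1* coincide, and *Stag3* and *Hormad1* lie near the floor.

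The shugoshins had nearly the same means in both genotypes. *Sgo1*, which protects centromeric cohesin in mitosis, averaged 3.20 in Mfn1-/- and 3.18 in WT, a log2 ratio of 0.01. *Sgo2a*, encoding the shugoshin that guards REC8 cohesin in oocytes, had means of 1.36 and 1.44, a log2 ratio of -0.08. With 0.01 removed the ratio was 1.01 for *Sgo1*, with an interval of 0.910 to 1.11, and 0.944 for *Sgo2a*, with an interval of 0.849 to 1.05. Both intervals held 1, so neither ratio could be told from 1 at this depth. Relative to the expressed genes, both genes lay lower in Mfn1-/-, at -0.15 and -0.24 on the log2 scale. The intervals were not set against that reference. *Sgo2a* shares 2455 of its 7007 exon bases with *Kctd18* on the other strand. As counted, *Kctd18* itself had about 19 and 49 read pairs, against 594 and 833 for *Sgo2a*. How reads in the shared bases were counted is not given in the sources used here.

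*Sycp3*, which encodes the filament-forming protein of the lateral axis, had the largest log2 ratio of the 9 with the pseudocount. Without it, after removal of the 0.01, those of *Hormad1* (1.38) and *Stag3* (0.96) were larger than its 0.89, on far fewer read pairs. Its authors' mean was 4.84 in Mfn1-/- and 2.62 in WT, a log2 ratio of 0.86, or 0.70 relative to the expressed genes. The ratio with 0.01 removed was 1.85, with an interval of 1.68 to 2.04 on about 970 and 694 read pairs. Of the 2533 genes whose mean lay within 2-fold of its own, 91.9% had a lower log2 ratio. The central 90% of them spanned -0.85 to 1.06, so *Sycp3* lay inside that range. Its log2 ratio stayed between 0.69 and 0.89 under the 6 other treatments of the values shown for single genes in the plot of processing choices.

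*Sycp3* lies on chr10:88459569-88473236, wholly inside *Chpt1* on the other strand, and 660 of its 1264 exon bases are also *Chpt1* exon. *Chpt1*, a gene of phosphatidylcholine synthesis, averaged 0.101 in Mfn1-/- and 0.0731 in WT, a log2 ratio of 0.22, from about 69 and 63 read pairs. The libraries do not mark strand, so reads in the shared exon bases cannot be told apart, and how such reads were counted is not given in the sources used here. As counted, *Sycp3* had many times the read pairs of *Chpt1* in both genotypes, a split that depends on how the shared reads were counted.

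*Hormad1*, whose protein joins the unsynapsed axis and leaves it at synapsis, was barely detected. The mean was 0.0363 in Mfn1-/- against 0.0201 in WT, from about 11 and 6 read pairs. The log2 ratio was 0.18 with the pseudocount and 1.38 with the 0.01 removed. The interval of the latter ratio, 0.823 to 8.00, held 1, so no difference was detectable at this depth. A stretch of 994 bases at 97.9% identity is shared with *Gm15529*, with means of 0.687 and 0.133 from about 10 and 2 read pairs, so the reads of *Hormad1* are uncertain in origin as well.

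Of the 9 members, 7 had the higher mean in Mfn1-/- and 2 in WT. Of all genes, 56.7% had the higher mean in Mfn1-/-, as did 65.4% of the expressed genes. After subtracting the median of the expressed genes, 5 members were higher and 4 lower. None was past 2-fold in either direction, while 7.61% of all genes were, 4.87% higher and 2.75% lower in Mfn1-/-. At 1.5-fold, 1 member (*Sycp3*) was past the threshold, against 19.3% of all genes. With the 0.01 removed and no pseudocount, 1 member (*Hormad1*) was past 2-fold, against 26.4% of the 21018 genes that could be compared that way. The median log2 ratio of the 9 was 0.18, beside 0.04 for all genes and 0.16 for the expressed genes. The plot of all genes shows the members spread over a wide range of levels, and none stands apart from the genes around it.

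**Figure D2:**
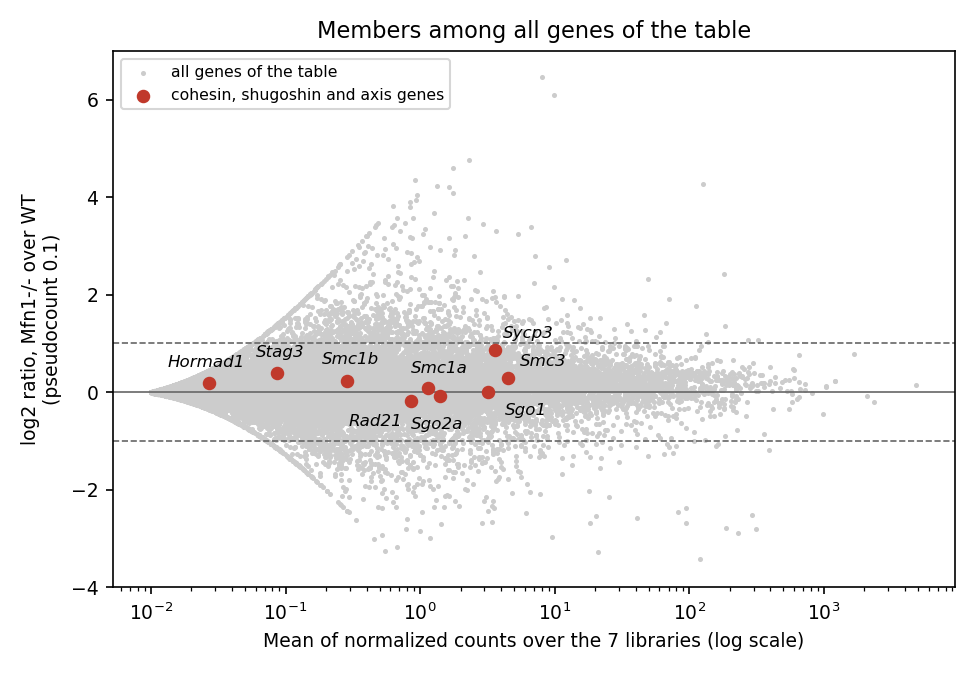
Log2 ratio of Mfn1-/- over WT (pseudocount 0.1) against the mean of normalized counts over the 7 libraries (log scale), with every gene of the table in grey, the 9 members in red and 2-fold dashed. The members lie between the dashed lines, with *Sycp3* the nearest to the upper one at 0.86.

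**Figure D3:**
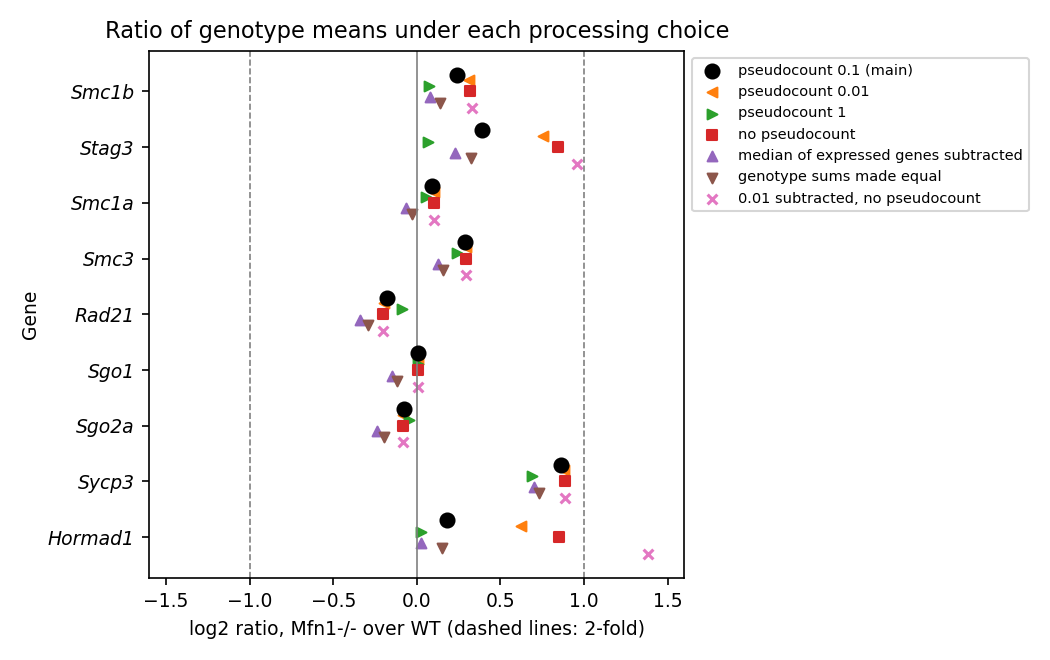
Log2 ratio of Mfn1-/- over WT for each member under the main treatment (black circles, pseudocount 0.1) and 6 others, with 2-fold dashed. *Sycp3* stays between 0.69 and 0.89, whereas *Stag3* moves between 0.07 and 0.96 and *Hormad1* between 0.02 and 1.38 with the treatment of low values.

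Levels rescaled to exon length, called exon RPKM here, allowed the subunits to be set beside each other, on the assumption that all reads lay in exons. In WT, *Smc3* was the highest at 33.5 exon RPKM (interval 32.4 to 34.6), followed by *Sycp3* at 28.2 (26.1 to 30.4), *Sgo1* at 12.1 and *Smc1a* at 8.74. In Mfn1-/- the first places were exchanged, with *Sycp3* at 52.2 (49.0 to 55.6) and *Smc3* at 41.0 (39.6 to 42.4). Averaged over the libraries, *Smc3* lay above 92.7% and *Sycp3* above 92.9% of the genes matched to the annotation.

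Lower in the order, *Rad21* had 6.25 exon RPKM in WT and *Sgo2a* 6.11, with overlapping counting intervals. In Mfn1-/- *Sgo2a* had 5.77, *Rad21* 5.43 and *Smc1b* 5.19, and these 3 intervals overlapped one another. *Smc1b* had 4.12 in WT. *Stag3* had 0.589 in Mfn1-/- (0.441 to 0.783) and 0.303 in WT (0.211 to 0.426), and *Hormad1* 0.426 (0.216 to 0.775) and 0.164 (0.0654 to 0.388). The last places were held by *Stag3* and *Hormad1* in both genotypes, and their intervals overlapped.

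Each meiotic subunit was set beside its mitotic counterpart on the same scale. The level of *Smc1a* was 1.81 times that of *Smc1b* in Mfn1-/- and 2.12 times in WT. *Smc1b* thus made up 35.6% of the summed *Smc1a* and *Smc1b* level in Mfn1-/- and 32.0% in WT. *Smc3*, whose protein pairs with either, had 2.81 and 2.60 times that sum. *Stag3* had 0.346 times the level of *Stag2* in Mfn1-/- and 0.189 times in WT, since *Stag2*, the ubiquitous STAG subunit, had 1.70 and 1.61. *Stag1*, its ubiquitous counterpart, had 0.491 and 0.439. *Stag2* lay above 58.8% of the matched genes, *Stag1* above 40.9% and *Stag3* above 40.0%. *Rad21* had 4.43 times the level of *Rad21l*, the other meiotic kleisin, in Mfn1-/- and 7.02 times in WT. *Rad21l* had 1.23 and 0.890, and kleisin transcripts other than *Rec8* were thus mostly *Rad21*. *Sgo1* had 2.11 and 1.98 times the level of *Sgo2a*. The plot of exon RPKM shows these genes side by side. The ratios between genes have no replicate check, and they compare transcripts, not proteins.

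**Figure D4:**
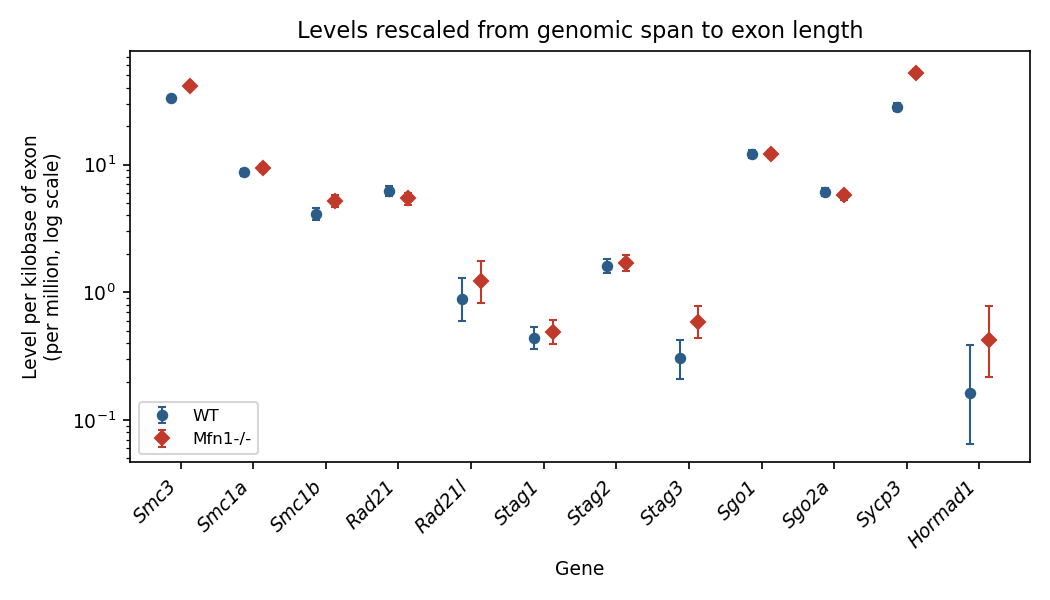
Level per kilobase of exon (exon RPKM, log scale) in WT (circles) and Mfn1-/- (diamonds) for 9 members and for *Rad21l*, *Stag1* and *Stag2*, with 95% intervals for counting error as bars. *Smc3* and *Sycp3* stand highest (33.5 and 28.2 in WT, 41.0 and 52.2 in Mfn1-/-), and *Hormad1* lowest (0.164 in WT, 0.426 in Mfn1-/-).

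Other genes of chromosome cohesion and meiosis were read from lists. Their counts of higher and lower genes stand beside the 56.7% of all genes that were higher in Mfn1-/-. Of 15 other cohesin subunits and regulators, 9 were higher and 6 lower in Mfn1-/-, with 0 past 2-fold, a median log2 ratio of 0.03 and a range of -0.25 to 0.29. *Pttg1*, the securin that holds separase in check, averaged 385 in Mfn1-/- and 336 in WT, a log2 ratio of 0.20. *Cdca5*, the sororin that stabilises cohesin on DNA, had 41.8 and 39.9, a log2 ratio of 0.07.

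Of 11 centromere protection partners, which are mainly subunits of the phosphatase PP2A that shugoshins recruit, 4 were higher and 7 lower, with 0 past 2-fold and a median of -0.04. The catalytic subunit *Ppp2ca* had means of 5.32 and 4.21, a log2 ratio of 0.33. The scaffold *Ppp2r1a* had 3.64 and 2.59, a log2 ratio of 0.48. Both partners thus had the higher mean in Mfn1-/-, at ratios above those of *Sgo1* and *Sgo2a*.

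Of 14 synaptonemal complex and axis partners, 12 had a row, 6 higher and 6 lower in Mfn1-/-. With the pseudocount, 0 were past 2-fold and the range was -0.48 to 0.52. With the 0.01 removed, only *Mei4* was past it, against 26.4% of all genes compared that way. Its ratio was 0.247, with an interval of 0.177 to 0.335 on about 48 and 259 read pairs. The central element genes *Syce2*, with means of 28.7 and 29.7, and *Tex12*, with 4.53 and 4.59, had log2 ratios of -0.05 and -0.02. The lowest log2 ratio of the list was that of *Sycp2*, at -0.48, and the highest that of *Rec114*, at 0.52. With 0.01 removed, *Sycp2* had a ratio of 0.681 (0.614 to 0.756) on about 551 and 1071 read pairs. *Rec114* had 1.67 (1.45 to 1.93) on about 432 and 342. *Sycp3*, at 0.86, lay above the range of this list. Of 21 genes of meiotic recombination, 19 had a row, 9 higher and 10 lower. With the pseudocount, 0 were past 2-fold and the median was -0.02. With the 0.01 removed, 2 were past it. *Hfm1* had a ratio of 0.176 (0.0452 to 0.501) on about 4 and 30 read pairs. *Gm960* had 2.29 (0.228 to 23.8) on about 3 and 2. *Psmc3ip*, which aids the strand-exchange recombinases, had means of 28.3 and 20.5, a log2 ratio of 0.46.

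Of 13 genes of condensin and the SMC5/6 complex, the other SMC complexes of chromosomes, 7 were higher and 6 lower, with 0 past 2-fold and a median of 0.06. The condensin subunits with the highest means were *Smc4*, with 15.3 and 19.4 and a log2 ratio of -0.34, and *Ncapg*, with 9.06 and 9.79 and a log2 ratio of -0.11. *Smc2*, which pairs with *Smc4* in the condensin ring, went the other way, with means of 2.25 and 1.57 and a log2 ratio of 0.49. Condensin genes thus had ratios in both directions. The plot of the lists shows their medians close together, from -0.04 to 0.18.

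**Figure D5:**
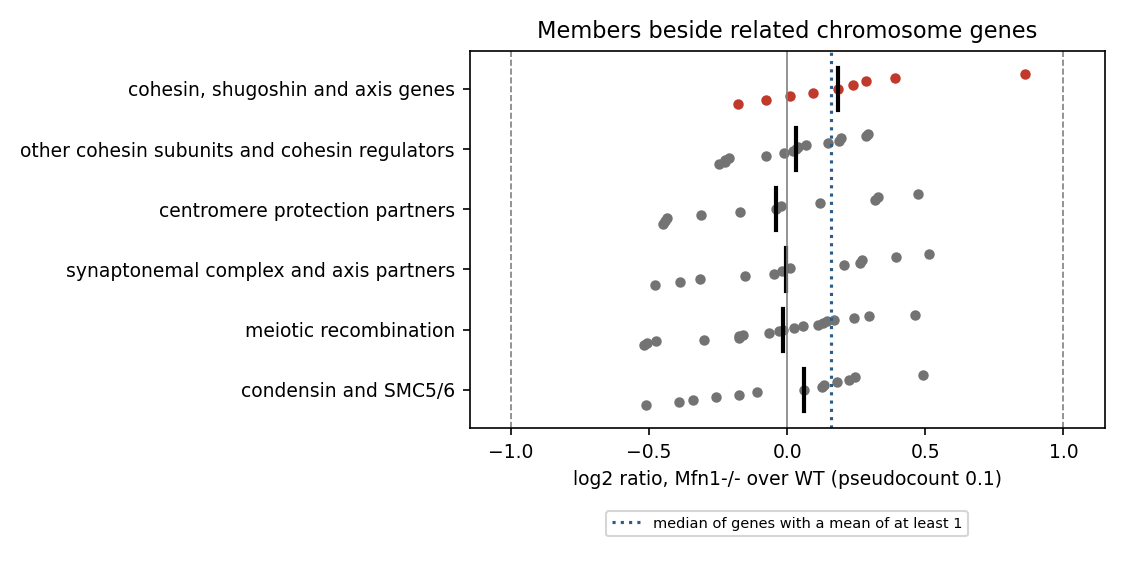
Log2 ratio of Mfn1-/- over WT (pseudocount 0.1) for each gene of the members (red) and of 5 related lists (grey), with list medians as black bars, the median of the expressed genes dotted and 2-fold dashed. The list medians lie between -0.04 and 0.18, and *Sycp3* is the point farthest to the right at 0.86.

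The targeted gene went with the labels: *Mfn1* averaged 0.0577 in Mfn1-/- and 0.616 in WT, a log2 ratio of -2.18. All 12 oocyte markers had a row, with a median log2 ratio of 0.18 and a range of -0.39 to 0.90, the highest being *Figla*, a factor of oocyte gene expression. Of 14 granulosa cell markers, 12 had a row, 3 higher and 9 lower in Mfn1-/-. Their summed means of 2.40 and 1.78 were mostly *Inha*, with 1.87 and 0.954 from about 90 and 60 read pairs. Such sums were made before rescaling to exon length, so they favour genes of short span. In exon RPKM, *Inha* had 4.15 and 2.11, *Cyp19a1* 1.69 and 4.13, *Nr5a2* 1.75 and 3.22, and *Cdh2* 1.96 and 2.73. The sum thus gives no direction for these markers. The best covered that were lower in Mfn1-/- were *Cyp19a1*, with about 112 and 364 read pairs and a ratio of 0.408 after removal of the 0.01 (0.327 to 0.505), *Nr5a2*, with 151 and 369 (0.543, 0.446 to 0.657), and *Cdh2*, with 232 and 429 (0.717, 0.608 to 0.843). The defining markers *Amh* and *Foxl2* had at most 2 read pairs in a genotype, and *Fshr* 19 and 30. Of 12 markers of theca, stroma, immune cells and blood, 6 had a row, with summed means of 7.72 and 0.797. Nearly all of that was *Cd68*, a macrophage marker, at 7.58 and 0.672, a log2 ratio of 3.31. With the pseudocount it was the only gene of these marker lists past 2-fold. With the 0.01 removed, *Cyp19a1* was past it as well. So were *Amh*, *Foxl2* and *Hsd17b1*, on at most 6 read pairs in a genotype. *Lyz2*, another macrophage marker, was listed at 0.01 in Mfn1-/- and had 0.0203 in WT. The part of other cells in the members' values was not tested.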

How the data were processed

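RNA of WT and Mfn1-/- oocytes was amplified with Smart-Seq2 and sequenced as 75 bp read pairs from Nextera XT libraries. Adapters were trimmed by the authors using cutadapt and poor reads removed using the FASTX-Toolkit, after which STAR alignment to GRCm38/mm10, gene counting and a DESeq2 comparison followed. The counting annotation and its strand setting are not given in the sources used here. Per the submitters' processing notes, FastQC and DESeq were also named.

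The deposited table gives normalized counts that were read here as RPKM, per kilobase of genomic span, with 0.01 added, as the authors' mean per genotype and a sum over libraries. The sum equals 3 Mfn1-/- and 4 WT means within 1% in 100% of rows. Its other columns hold the authors' p-value, FDR, ratio and fold change and were not used. There were 0 unused columns of single samples, so the planned limma fit and any spread between replicates could not be had. The unit was inferred from low values. In genes spanning over 2 times their exon length and listed at 0.01 in the other genotype, the sum less its offsets, times span, piled up at 1 value. The fullest window of 10% width held 21.7% of 401 such genes in Mfn1-/- and 17.4% of 455 in WT, against 6.23% and 5.93% with exon length. That value, the worth of 1 read pair, was the median within a fixed window of 160 to 240, with span in bases. The window held 295 of 824 usable genes in Mfn1-/- and 239 of 816 in WT. It gave about 4900000 pairs per library in the scaling (central 90% of genes in the window, 4590000 to 5600000) in Mfn1-/-. In WT it gave 4870000 (4440000 to 5190000). The read pairs per gene follow from it. Both ranges are bounded by the window, so they do not measure how well the depth is known. Read pairs without molecular identifiers are not independent molecules, so intervals cover counting error only.

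Log2 ratios used a pseudocount of 0.1, which understates the ratio of low genes. Alternatives were pseudocounts of 0.01, 1 and none, subtraction of the median log2 ratio of genes with a mean of at least 1, equal genotype sums, only genes with a mean of at least 1, and a threshold of 1.5-fold. Subtraction of the 0.01 was chosen after seeing the data. Members and lists were chosen with earlier results of these data known. Named were every member, *Mfn1*, and of each list every gene past 2-fold with a mean of at least 1 (none in the lists of chromosome genes, and *Cd68* among the markers) and the 2 with the highest mean. A gene that this rule names is not reported here. *Stag1*, *Stag2*, *Rad21l*, *Chpt1*, *Kctd18*, *Gm15529*, *Meikin*, *Sycp2*, *Rec114*, *Mei4*, *Hfm1*, *Gm960*, *Smc2* and the named cell type markers were chosen after their values were seen. Genes were matched by name to GENCODE M21, 21895 of 22877 rows once. Promoters came from RefSeq (GRCm38.p6). Transcripts were compared with blastn 2.17.0. The code was tested on simulated data. It ran under Python 3.11.15 with pandas 2.3.3, numpy 2.4.6, matplotlib 3.10.9 and scipy 1.17.1.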

Additional observations from a re-analysis of the deposited data

How the results depend on the processing

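No paired analysis was possible because only 1 mean per genotype was used, and leaving out each replicate could not be run for the same reason. A median counted as moved from 0.1 on the log2 scale, and a count from 1.5 times. Of the summary results, 76 values under an alternative stayed within these limits, 16 moved, and 5 moved and changed sign. Another 5 medians, of other cohesin and of synaptonemal complex genes, changed sign within these limits, at values from -0.043 to 0.036. The members' count higher in Mfn1-/- was 4 among genes with a mean of at least 1, where only 5 members remained. Their count past 2-fold was 1 at a 1.5-fold threshold (*Sycp3*) and 1 with 0.01 subtracted (*Hormad1*). Their median of 0.18 became 0.29 with a pseudocount of 0.01, 0.29 with none, 0.29 with 0.01 subtracted, 0.054 with a pseudocount of 1, and 0.023 with the median of expressed genes subtracted. That subtraction also gave medians of -0.13 for other cohesin genes, -0.20 for centromere partners, -0.16 for synaptonemal complex genes, -0.18 for recombination and -0.10 for condensin and SMC5/6, and values of -0.066 for *Smc1a* and -0.15 for *Sgo1*. Equal genotype sums gave -0.15 for centromere partners, -0.065 for condensin and SMC5/6, -0.028 for *Smc1a* and -0.12 for *Sgo1*. With genes of a mean of at least 1 only, the medians were 0.33 for centromere partners and 0.20 for recombination. Past 2-fold, synaptonemal complex genes had 1 (*Mei4*) with no pseudocount and 1 with 0.01 subtracted, and recombination genes had 1 (*Hfm1*) with no pseudocount and 2 (*Hfm1* and *Gm960*) with 0.01 subtracted. For *Stag3* and *Hormad1* the shifts follow from adding a constant to values near the floor, and for the median subtraction from the subtracted 0.16. For other shifts the cause was not tested. Depth limits *Hormad1* and *Stag3* most.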
